A study of Mus musculus with 2 samples.

Results

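Besides insulin, the endocrine cells of the islet and of the gut release a set of small peptide hormones, and the genes of 10 of them are described here in MIN6 cells: Gcg, Sst, Ppy, Pyy, Ghrl, Cck, Gast, Gip, Npy and Nts. They were chosen by name as hormones of islet or gut endocrine cells other than the β cell, and not by their values. Earlier results of these data were known at that point. A spot was assigned to one of these genes where its accession belongs to that gene in the RefSeq annotation. This gave 10 probes with 28 spots, 1 probe for each gene, out of 20653 genes that could be named in the same way. Gcg and Sst are each printed 10 times on an array, and the other 8 genes are printed once.

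MIN6 is an insulinoma line from a transgenic C57Bl/6 mouse, used here at passages 15 to 20. Cells of one culture received lentivirus made from PLVX-IRES-ZsGreen-mFTO, which carries mouse Fto and a green fluorescent marker (the treatment label spells it FTP overexpression). Cells of the other received virus from PLVX-IRES-ZsGreen without Fto, and both were transduced in 8 µg/ml polybrene at about 50% confluence, with green fluorescence looked at after 48 h. Each condition was measured on 1 one-colour Agilent array, so the differences below rest on a single pair of cultures and carry no p-value. The time from transduction to RNA extraction and the share of transduced cells are not given in the sources used here.

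Each of these hormones is cut from a longer precursor and stored in dense granules until the cell is stimulated. Glucagon comes from α cells, somatostatin from δ cells, pancreatic polypeptide from PP cells and ghrelin from ε cells of the islet, while cholecystokinin, gastrin, GIP, peptide YY and neurotensin are best known from gut endocrine cells or the nervous system. Npy, Pyy and Ppy form one family that acts on the Y receptors, and gastrin and cholecystokinin share the end of the peptide that binds the CCK receptors. Adult β cells make little of most of these hormones, and insulinoma lines are known to make several of them.

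The windows before the transcription start of 5 members are shown, for these reasons. The values of Gcg, Cck, Npy and Gip moved by more than their spot error with the normalization. Sst was measured in 10 spots, and Gip was also the member past a 2-fold difference. The sequences are the 100 bases before a RefSeq start in build GRCm38.p6, read 5′ to 3′ on the strand of the gene. They lie at chr2:62483654-62483753 (minus strand) for Gcg, chr9:121495695-121495794 (minus) for Cck, chr6:49822610-49822709 (plus) for Npy, chr16:23890845-23890944 (minus) for Sst and chr11:96024445-96024544 (plus) for Gip. Capitals mark TATAA, the core of a TATA box, and TGACGTCA, the cAMP response element, each searched on both strands.
Gcg: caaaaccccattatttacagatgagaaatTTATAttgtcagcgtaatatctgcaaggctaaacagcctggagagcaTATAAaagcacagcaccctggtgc
Cck: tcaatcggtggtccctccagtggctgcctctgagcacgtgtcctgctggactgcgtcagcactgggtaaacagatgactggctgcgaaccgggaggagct
Npy: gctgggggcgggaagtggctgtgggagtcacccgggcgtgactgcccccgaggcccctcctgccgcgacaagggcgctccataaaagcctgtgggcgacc
Sst: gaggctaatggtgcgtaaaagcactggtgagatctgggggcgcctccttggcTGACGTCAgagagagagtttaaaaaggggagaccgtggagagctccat
Gip: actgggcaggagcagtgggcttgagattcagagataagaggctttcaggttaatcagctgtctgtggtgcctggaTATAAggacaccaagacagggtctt
All 10 members had at least 1 such window. TATAA was found in a window of 5 members (Gast, Gcg, Gip, Ppy and Pyy), and in 10.2% of all 32851 windows of this length in the table. TGACGTCA was found in a window of Sst alone among the members, and in 1.15% of all windows. The members are counted as genes with a match in any window, while these shares are of single windows. Ghrl and Pyy had more than 1 window. A match is a stretch of letters and not evidence of binding.

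Before the hormones, the arrays were checked against their labels. Ins1, which encodes one of the mouse insulins, had signals of 215620 on the FTO-labelled array and 220341 on the control-labelled array, and all 14 β cell markers examined were detected on both. The single probe of Fto had a log2 difference of 0.06 (spot error 0.20), within its error, and directions below therefore rest on the labels alone. The vector carries the coding sequence alone, and where in the transcript this probe lies is not in the files. Signals are Cy3 intensities with the background removed. Differences are log2 signals on the FTO-labelled array minus control after quantile normalization. The spot error combines the software's error estimates of both arrays' spots, averaged over the spots of a repeated probe. It was close to 0.20 for every bright probe named here and does not shrink with more spots. It is not a measured spread between spots or cultures. Agilent's flag for a spot well above background was met down to a signal of 13.1 on the FTO-labelled array and 10.1 on the control-labelled one.

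All 10 hormone genes gave a signal well above background on both arrays, and no spot of theirs was saturated. In one member, Gip, the arrays differed by slightly more than 2-fold. This is 1 of 10 members, beside 3.21% of the 18513 named genes that were above background on at least 1 array (1.31% higher and 1.9% lower on the FTO-labelled array). The median log2 difference of the members was -0.06, with 4 above and 6 below 0, and that of all genes was 0.01. The brightness of a probe depends on its sequence as well as on its RNA, so the members are not ranked against each other by signal.

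**Figure D1:**
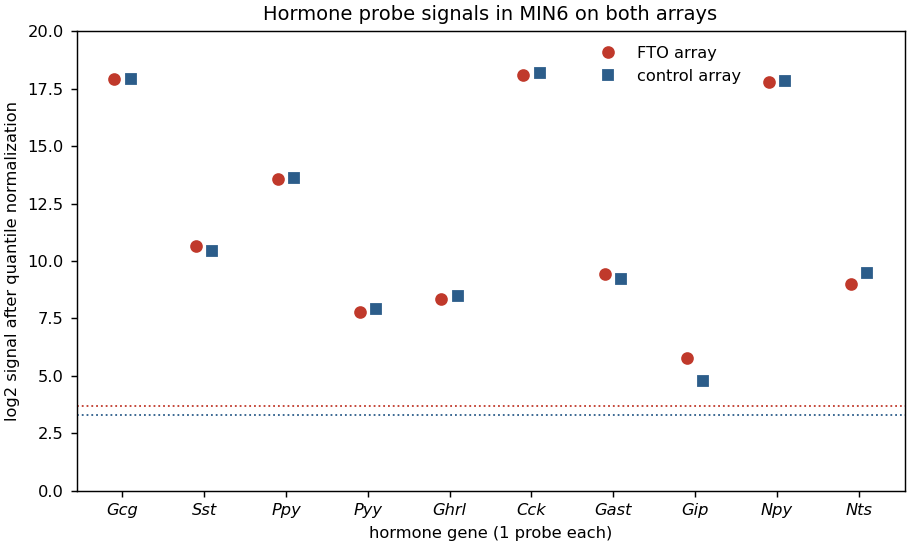
Log2 signal of the 10 hormone probes after quantile normalization (vertical axis), for the FTO-labelled array (circles) and the control-labelled array (squares). Dotted lines give the lowest log2 signal of a probe well above background, 3.71 on the FTO-labelled array and 3.32 on control, and every member lies above both lines.

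Among the islet hormones, Gcg, the precursor of glucagon and of the glucagon-like peptides, had a mean signal of 257411 on the FTO-labelled array and 243558 on the control-labelled array. The spots ran from 236884 through a median of 253078 to 285742 on the former (10 spots) and from 229572 through 242452 to 261014 on the latter (9 spots, since 1 had an outlier flag). The spots of the arrays overlapped. After normalization the difference of the probe was 0.01, and with the spots placed on the same scale one by one it was 0.01 ± 0.03 (SE over spots). The SD between spots was 0.09 on the FTO-labelled array and 0.06 on control, so the same RNA measured repeatedly on an array varied by more than the arrays differed. Spots of one array are technical repeats and carry no variation between cultures.

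Sst, which encodes somatostatin, the inhibitor of insulin and glucagon release, had 10 spots on each array. Its signal ran from 1741 through a median of 1799 to 2012 on the FTO-labelled array, and from 1158 through 1233 to 1354 on control. All 10 spots on the FTO-labelled array lay above the brightest control spot. That array was brighter in general, and over 2291 probes with a mean log2 signal between 10 and 11 the median difference before normalization was 0.40, against 0.58 for Sst. After normalization the Sst difference was 0.19 (a 1.14-fold higher signal). This is slightly smaller than its spot error of 0.20, which takes no account of there being 10 spots. The SE over spots was 0.03, and 7 of 10 spots lay above the brightest control spot. Of the 2291 probes of like signal, the central part between the 10th and the 90th percentile ran from -0.21 to 0.23, and Sst lay inside it. Unlike some of the differences below, that of Sst hardly depended on the normalization, and ran from 0.16 to 0.19 over the alternatives.

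**Figure D2:**
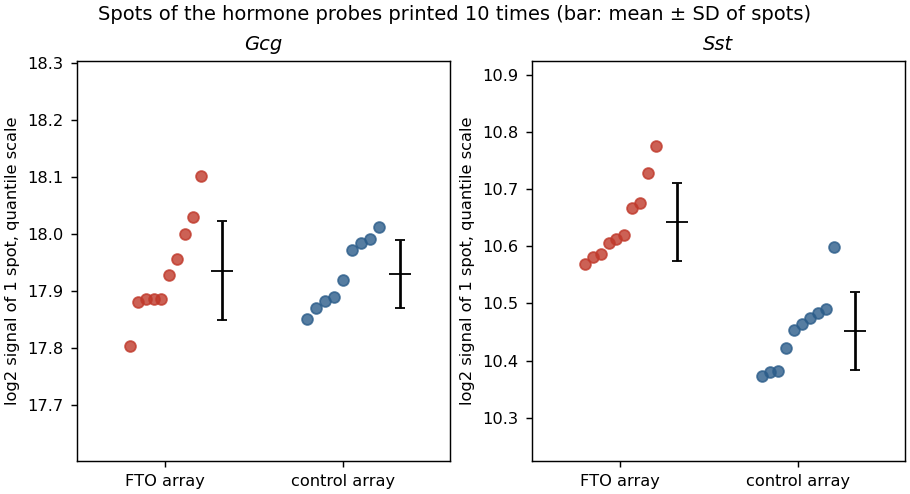
Log2 signal of each spot of Gcg (left) and Sst (right) on the quantile scale, by array, with the mean and SD of spots as a bar. Gcg spots overlap between the arrays, and 7 of 10 Sst spots on the FTO-labelled array lie above the brightest control spot.

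Ppy, which encodes pancreatic polypeptide, had signals of 14003 on the FTO-labelled array and 10872 on the control-labelled array, and a difference of -0.08 (spot error 0.20). Its spot lies in an area of the FTO-labelled array that is described with Gip. Ghrl, which encodes ghrelin, the hormone that stimulates growth hormone release and food intake, had signals of 368 and 320 and a difference of -0.12 (spot error 0.20). Both differences were smaller than the spot error.

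Among the peptides best known from gut or nerve, Cck, which encodes cholecystokinin, had signals of 288626 on the FTO-labelled array and 295846 on the control-labelled array, and a difference of -0.09. Npy, which encodes neuropeptide Y, had signals of 233195 and 224797 and a difference of -0.05. Neither difference exceeded its spot error of 0.20, and the signals stayed below the scanner's saturation value of 778190.

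The values of Gcg, Cck and Npy moved by more than the spot error with the choice of normalization, as did that of Gip (below). When each array was scaled by its 75th percentile, the differences became -0.35 for Gcg, -0.46 for Cck and -0.37 for Npy, and with cyclic loess -0.23, -0.33 and -0.26. All 594 probes with a mean log2 signal over 17 moved with them: their median difference was -0.0049 after quantile normalization, -0.28 after scaling and -0.18 after cyclic loess. Their 10th and 90th percentiles after scaling were -0.41 and -0.11, and Gcg and Npy lay inside this range and Cck below it. Ins1 went from -0.14 to -0.46.

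Pyy, which encodes peptide YY, an inhibitor of gut motility and appetite and the neighbour of Ppy on chromosome 11, had signals of 243 on the FTO-labelled array and 221 on the control-labelled array, and a difference of -0.13 (spot error 0.21). Gast, which encodes gastrin, the stimulus of gastric acid secretion, had signals of 783 and 536. Its difference was 0.20 (spot error 0.20), which is about its error, and it ran from 0.12 to 0.20 over the alternatives. After quantile normalization the Y family, Npy, Pyy and Ppy, lay between -0.13 and -0.05, each within its spot error. With scaling by the 75th percentile the values were -0.37, -0.29 and -0.06, and Npy was 0.04 with normexp.

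Nts, which encodes neurotensin, was the member with the lowest difference. Its signal was 569 on the FTO-labelled array and 626 on the control-labelled array, lower on the array that was brighter in general. After normalization the difference was -0.49 (spot error 0.20), a 1.41-fold lower signal, and it ran from -0.56 to -0.35 over the alternatives. The 3407 probes with a mean log2 signal between 8.5 and 10 had a central range from -0.26 to 0.26, which does not include Nts. It did not reach 2-fold under any of these settings, and its single spot lies outside the area of lost signal described next.

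Gip, which encodes the incretin that amplifies insulin release after a meal, had a signal close to background. It was 57.7 on the FTO-labelled array and 26.7 on the control-labelled array, from a raw spot of 114 over a local background of 32 and a raw spot of 76 over 28.5. The difference was 1.0021 (spot error 0.25), or 2.003-fold, which is past the 2-fold limit by less than its error. It was 0.96 with cyclic loess, 0.69 with scaling by the 75th percentile and 0.39 with the normexp background correction, each under 2-fold and each above 0. The share of all named genes past 2-fold was 3.46%, 4.69% (0.778% higher and 3.93% lower) and 0.335% (0.0972% higher and 0.238% lower) under these settings, in the same order. Gip stayed past the limit in the authors' processed values (3.21% of all genes), with probes above background on both arrays (1.45%), without a filter (5.38%), with the positive-and-significant flag (5.54%), with dim signals raised (2.17%) and at a threshold of 1.5-fold (8.49%). Among 3629 probes that were well above background on both arrays with a mean log2 signal between 5 and 6, 4.13% differed by more than 2-fold. Between 4.5 and 6 the central range was -0.53 to 0.51.

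The spot of Gip, at row 294 and column 11, lies in 1 of 6 blocks of the FTO-labelled array (within rows 229 to 456 and columns 1 to 34) where spots of repeated probes had lost signal. In these blocks 29.0% of the spots of 79 repeated probes fell short of their probe's median by over 0.5 (log2), against 1.86% elsewhere. The control-labelled array had 2 such blocks (within rows 1 to 76 and columns 35 to 85), which hold no spot of a member. Of 909 probes printed once in these blocks with a signal like that of Gip, 2.86% were more than 2-fold higher on the FTO-labelled array and 11.4% lower. Elsewhere these shares were 1.53% and 1.07% of 4316 probes. Differences past 2-fold were thus more frequent in this area than elsewhere in both directions, and the part of this area in the value of Gip was not tested. With the blocks left out, no value remains for Gip or Ppy, and none of the other 8 members differed by more than 2-fold (2.01% of all genes then did).

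**Figure D3:**
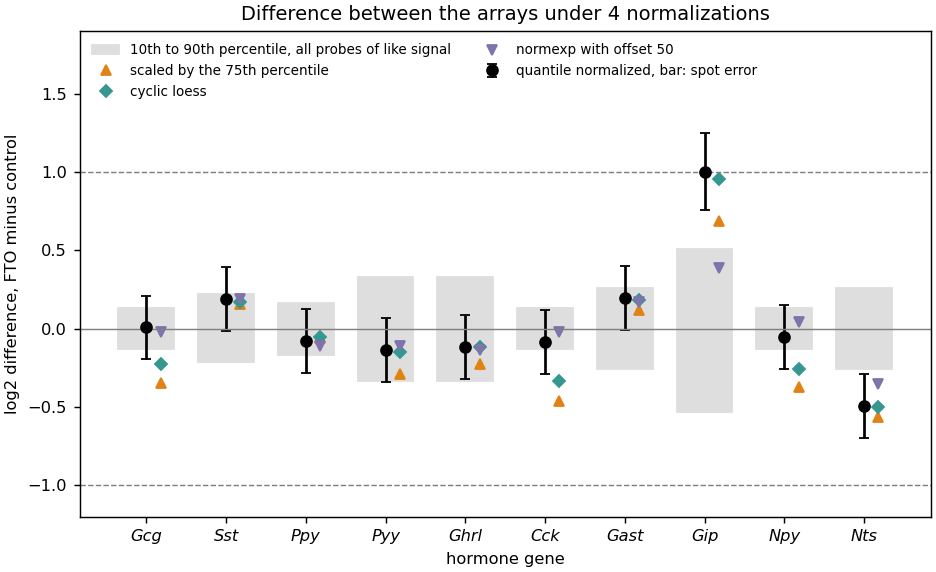
Log2 difference, FTO-labelled array minus control (vertical axis), of the 10 hormone genes after quantile normalization (black, bar: spot error) and under 3 other normalizations (coloured). Gray boxes span the 10th to 90th percentile of all probes of like signal, and dashed lines mark 2-fold. By construction 10% of the probes of like signal lie above a box and 10% below it. Gip and Nts lie outside their boxes after quantile normalization. Gcg, Cck and Npy lie lower with scaling and cyclic loess than after quantile normalization.

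Regulators of the other islet cells were read beside their hormones. Of 6 factors of α cells, all were well above background on both arrays, as were 17740 of all 20653 named genes. Irx1 had signals of 2148 on the FTO-labelled array and 1699 on control, and the brighter probe of Irx2 had 1361 and 1040. Their differences were -0.06 and 0.01, and none of the 6 differed by more than 2-fold. Of 4 genes listed as δ cell factors, Pdx1 (also a β cell factor), Ghsr and Lepr passed the background flag on both arrays, with differences from -0.03 to 0.13 at their brightest probes. Hhex, the defining one, passed it on neither, with signals of 3.67 and 2.23, and its spot lies in the area of lost signal. The dimmer probes of Lepr disagreed, at 0.62, 0.47 and -0.73, and the last passed 2-fold with scaling by the 75th percentile (-1.11). In bulk RNA, a few cells with much hormone RNA and many cells with little cannot be told apart, and neither can fewer cells of a type and less RNA per cell.

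Receptors for these hormones were read from 20 genes. Of these, 18 were well above background on both arrays, beside 17740 of all 20653 named genes. None of the 18 differed by more than 2-fold, beside 3.21% of all named genes tested. The exceptions, Npy2r and Npy6r, passed the flag on neither array. The median difference was 0.01, with 10 genes above and 8 below 0. Among the receptors of the proglucagon peptides and of Gip, Gipr had signals of 3244 on the FTO-labelled array and 2434 on the control-labelled array and a difference of 0.02, Gcgr had 688 and 460 and a difference of 0.24, and the brighter probe of Glp1r had 1526 and 1334 and a difference of -0.20. The spot error of each was 0.20. Glp2r, the receptor of GLP-2, had signals of 141 and 92.1 and a difference of 0.42 (spot error 0.21) at the probe that passed the flag, which was 0.19 with scaling and 0.24 with normexp. Of the somatostatin receptors, Sstr3 had signals of 47412 and 36450 (difference -0.04) and Sstr5 of 15146 and 10704 (difference 0.06). Sstr4 had the lowest difference of the list, -0.87 (spot error 0.21), from signals of 193 and 290, and passed 2-fold with scaling by the 75th percentile (-1.02). Npy5r had the highest, 0.88 with a spot error of 0.35, from signals of 31.1 and 16.4, and had 0.14 with normexp. The brighter probe of Cckbr, the receptor of gastrin and cholecystokinin, had 14604 and 10688 and a difference of 0.01, and Ghsr, the ghrelin receptor, had 69.6 and 57.3 and a difference of 0.13, and both of these spots lie in the area of lost signal. Ntsr1, a neurotensin receptor, had 191 and 154 and a difference of 0.07, and the brighter probe of Sort1, the neurotensin-binding sorting receptor, had 18785 and 11944 and a difference of 0.21.

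The machinery that cuts and finishes these peptides was well above background for 19 of 20 genes on both arrays, Pcsk5 being the exception. Among all 20653 named genes, 17740 were so. None of the 19 differed by more than 2-fold, beside 3.21% of all named genes tested. The median difference of the 19 was -0.01, with 9 above and 10 below 0. The convertases that cut the precursors, Pcsk1 (188940 on the FTO-labelled array and 164466 on control) and the brighter probe of Pcsk2 (262725 and 279990), had differences of 0.04 and -0.16, and Cpe, the carboxypeptidase that trims the cut ends, had a difference of -0.03 at its brightest probe. Pam, which places the amide at the end of Npy, Pyy, Ppy, Cck and gastrin peptides, had the lowest difference, -0.64 with a spot error of 0.20, from signals of 817 and 980. It ran from -0.69 with scaling to -0.58 with normexp. Tpst1, a tyrosine sulfotransferase of the kind that sulfates cholecystokinin and gastrin, had the highest, 0.39, from 2731 and 1576, while its relative Tpst2 had -0.16. Mboat4, the enzyme that acylates ghrelin, had 58.2 and 45.3 and a difference of 0.23 (spot error 0.23). Dpp4, which inactivates Gip and GLP-1, had 14599 and 9520 and a difference of 0.18. The probes of Cpd pointed in opposite directions, at -0.21 for the brighter and 0.43 for the dimmer.

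**Figure D4:**
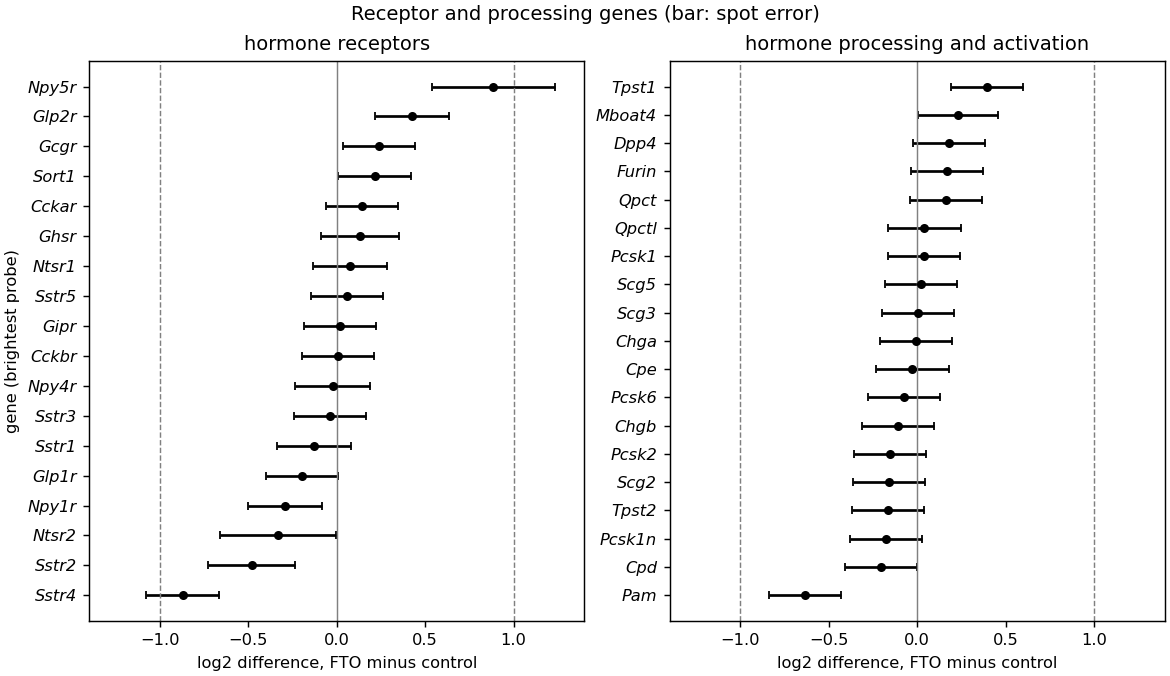
Log2 difference, FTO-labelled array minus control (horizontal axis), of the brightest probe of each hormone receptor gene (left) and each processing gene (right), with the spot error as a bar and 2-fold as dashed lines. No gene lies past 2-fold, with Sstr4 (-0.87) and Npy5r (0.88) at the ends of the receptors and Pam (-0.64) and Tpst1 (0.39) at the ends of the processing genes.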

How the data were processed

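Total RNA of 2 MIN6 cultures was labelled with Cy3 and hybridized to 1 Agilent array each, on the same slide and in the same scan. The deposited spot intensities come from Agilent Feature Extraction 11.0.1.1, per the file headers with background subtraction and spatial detrending but no normalization between arrays. The authors also deposited log2 values of 33870 probes, quantile normalized in GeneSpring, which were used as an alternative and hold all 10 hormone probes. Other deposited columns hold flags for background, saturation and outliers and the error estimate of each spot's intensity.

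Control spots and outlier spots (148 on the FTO-labelled array, 141 on control) were left out, the log2 signals of repeated spots were averaged per probe, and limma 3.58.1 (R 4.3.3) quantile normalized both arrays, the normalization that the study's methods name. Python 3.11.15 was used for the rest, and the normalization step was tested on simulated data. A probe printed 10 times counted as well above background where at least 50% of its spots were, and 82.0% and 84.9% of 39417 probes were so. A gene counted where 1 of its probes passed this flag on either array, and was called past a log2 difference of 1 or -1 in any such probe. For medians and gene values the brightest probe was used. Names come from RefSeq accessions in GRCm38.p6, while the array design lists an older build. With 1 array a condition, precision is limited by the number of arrays.

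Spots of 79 repeated probes in 35 blocks of 76 rows and 17 columns located areas of lost signal, a block counting where at least 15% of such spots were more than 0.5 low. The members, the 9 gene lists and the blocks were chosen with earlier results of these data known, and the signal ranges after the values had been seen. The text names all members, some list genes at the ends of a range or past 2-fold, and a selection of receptors and enzymes of the members, and gives the other list genes by counts and medians. Some items are not reported here. No likeness of patterns between genes can be measured over 2 arrays.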

Additional observations from a re-analysis of the deposited data

How the results depend on the processing

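All 10 members were well above background with either flag, and 8 remained with a spot outside the blocks of lost signal. The number of members past 2-fold was 1 after quantile normalization and 0 with scaling by the 75th percentile, cyclic loess, normexp or the blocks left out. In the other 6 alternatives it was 1. Of 88 values for single members under the alternatives, 80 moved by less than the spot error and 8 by more, and Gip, the member past 2-fold, stayed above 0. Gcg, near 0 after quantile normalization, was below 0 with scaling, cyclic loess, normexp and the blocks left out, and Npy went from -0.05 to 0.04 with normexp. The median difference of the members ran from -0.26 with scaling to -0.02 with normexp. Over the other lists, 2 of 110 genes differed by more than 2-fold, beside 3.21% of all named genes. This count was 4 with scaling (4.69% of all named genes), 4 of 117 with the positive-and-significant flag (5.54%) and 4 of 119 without a filter (5.38%). It was 10 at a threshold of 1.5-fold (8.49%), 0 with normexp (0.335%) and 0 of 107 with probes above background on both arrays (1.45%). The causes of these shifts were not tested. Signals near background limit Gip, Npy5r, Calcb and Cftr. No paired analysis was possible because each condition has 1 array, and for the same reason no replicate could be left out.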

Other observations

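Other peptide hormone genes were examined with a list of 33, of which 32 had a probe and 28 passed the background flag on both arrays. The median difference was -0.02, with 13 above and 16 below 0. Sct, which encodes secretin, had signals of 45187 on the FTO-labelled array and 31564 on the control-labelled array and a difference of 0.08. Pdyn, which encodes prodynorphin, had 75975 and 64659 and a difference of -0.14, and Tac1, the precursor of substance P, had 5155 and 3406 and a difference of 0.18. Grp, which encodes gastrin-releasing peptide, was at the low end with -0.52 (spot error 0.21), from 103 and 129, with its spot in the area of lost signal. Insl5, a hormone of the distal gut, had 72.2 and 38.2 and a difference of 0.79 (spot error 0.23), the highest among genes measured on both arrays. Calcb was well above background only on the FTO-labelled array, where its signal was 21.0, against 9.15 on control. After quantile normalization its difference was 1.19 (spot error 0.46). Its control signal did not pass the flag, so the size of this difference is uncertain. Its difference was 0.77 with scaling and 0.13 with normexp, both under 2-fold. Vip, Crh and Edn1 passed the flag on neither array.

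Of 11 factors shared by islet endocrine cells, all were well above background on both arrays and none differed by more than 2-fold. Neurog3, which starts the endocrine program in the embryo, had 213 and 233 and the lowest difference, -0.40 (spot error 0.21), while Neurod1 had the highest, 0.36, at its brighter probe and 0.05 at its other probe. Markers of acinar cells were well above background on both arrays for 9 of 12 genes. Ctrb1 had 261 and 397 and a difference of -0.91, and Ptf1a, the defining factor of acinar cells, passed the flag on neither array. Of 7 duct markers, 5 were well above background on both arrays, with Krt7 at 19974 and 17845 (difference -0.28). Sox9, whose probe is printed 10 times, passed the flag on neither array, with signals of 6.13 and 5.49. Cftr had a signal of 20.6 on the FTO-labelled array and 7.88 on control, the latter not well above background. After quantile normalization its difference was 1.39 (spot error 0.53), of uncertain size for the same reason as that of Calcb. Its difference was 0.96 with scaling and 0.13 with normexp, both under 2-fold.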
